A study of Mus musculus with 6 samples.

Results

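The let-7 family was read with 9 mouse-named assays, mmu-let-7a, mmu-let-7b, mmu-let-7c, mmu-let-7d, mmu-let-7e, mmu-let-7f, mmu-let-7g, mmu-let-7i and mmu-miR-98 (below without the species prefix), out of 345 miRNA assays in the deposited table of normalized values. These are the guide strands, the strands of each hairpin that are loaded into Argonaute, and they were taken by assay name alone. The samples were 3 DC-primed and 3 B cell-primed cultures of CD8+ pMel-1 T cells, from a mouse strain whose transgenic T cell receptor recognizes gp100, an antigen of melanoma. All 6 were primed in vitro for 3 days, DC-primed cells by bone marrow-derived dendritic cells matured with lipopolysaccharide (LPS) and B cell-primed cells by splenic B cells loaded with a human gp100 peptide. The experiment ran in 3 rounds, with 1 DC-primed and 1 B cell-primed sample in each. The labels name no step that removed the priming cells, so a level is that of the whole culture, in which fewer cells of a type and less RNA per cell cannot be told apart.

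let-7 miRNAs repress messages that match their seed, bases 2 to 8 counted from the 5′ end. Known targets in mammals include Hmga2, Ras genes, Myc and the RNA-binding protein Lin28, which in turn blocks let-7 maturation. In mouse CD8+ T cells let-7 is known to be high in naive cells, to fall on activation, and to restrain proliferation and cytotoxic function.

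All 9 mature sequences were found in RefSeq (GRCm38.p6) and are shown because the assays must separate RNAs that differ by few bases. Each is 22 bases long, with the seed in capitals.
let-7a: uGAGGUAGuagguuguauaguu
let-7f: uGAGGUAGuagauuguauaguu
let-7b: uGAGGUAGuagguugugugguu
let-7c: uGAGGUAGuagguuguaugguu
let-7d: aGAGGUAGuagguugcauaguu
let-7e: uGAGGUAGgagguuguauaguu
let-7g: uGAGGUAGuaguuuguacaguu
let-7i: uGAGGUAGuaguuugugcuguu
miR-98: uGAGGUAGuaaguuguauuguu
The 9 share 1 seed. Against let-7a, with positions counted from the 5′ end, let-7c differs by A19G, let-7e by U9G and let-7f by G12A. let-7b carries A17G and A19G, let-7d U1A and U16C, let-7g G12U and U18C, and miR-98 G11A and A19U. let-7i is the most distant, with G12U, A17G, U18C and A19U. Each assay used 1 miRNA-specific forward primer and a universal reverse primer, and how far the assays of near-identical members share signal was not tested.

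The genes lie in several clusters (GRCm38.p6, coordinates of the mature strand). let-7a (chr13:48538239-48538260), let-7f (chr13:48537889-48537910) and let-7d (chr13:48536078-48536099) sit together on the minus strand of chromosome 13. let-7c (chr15:85706616-85706637) and let-7b (chr15:85707325-85707346) are neighbours on the plus strand of chromosome 15, inside the long noncoding RNA gene Lncppara. A second let-7c gene (chr16:77599672-77599693) lies beside Mir99a. A second let-7f gene (chrX:151912353-151912374) lies beside miR-98 (chrX:151913229-151913250), both on the plus strand within the span of the protein-coding gene Huwe1. let-7e (chr17:17830366-17830387) lies within Spaca6 and beside Mir125a. let-7g (chr9:106178846-106178867) lies within Wdr82, and let-7i (chr10:122985698-122985719, minus strand) overlaps no other listed gene. The assays read the mature RNA, so the 2 gene copies of let-7c, those of let-7f, and those of let-7a, which include Mirlet7a-2, cannot be told apart.

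Levels are given as minus dCt on the log2 scale, where dCt is the threshold cycle (Ct) minus 1 number per sample that the authors set. A higher value means more miRNA and 1 unit is a 2-fold difference. Testing required a raw Ct below 35 in every one of the 6 samples, which 274 of the 345 assays met, 8 of the 9 members among them. The mean raw Ct of these 8 was 21.6, 23.5 and 27.5 in DC-primed samples 1, 2 and 3, against 22.4, 23.6 and 25.0 in B cell-primed samples, so DC-primed sample 3 had the latest values. That sample stood apart over the whole panel, with a mean raw Ct of 30.5 over the tested assays, against 26.3 to 28.4 in the other 5 samples, and 280 assays with a Ct below 35, against 327 to 341. miR-98 was not tested, with a Ct of 35.25 in DC-primed sample 3, and none of the 9 had a Ct filled in by the authors. miR-142-3p, a miRNA of haematopoietic cells, gave Ct values of 19.06 and 25.87 for DC-primed samples 1 and 2 and none for DC-primed sample 3, against 24.1, 20.99 and 23.67 for B cell-primed samples. The 5 other haematopoietic assays listed were all read in DC-primed sample 3. Their Ct values there were 30.16 for miR-142-5p, 27.14 for miR-150, 27.88 for miR-155, 33.51 for miR-181a and 30.44 for miR-16. No miRNA marks T cells alone, so the label was not checked further.

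let-7a had the highest mean level of the 9 in both groups and miR-98 the lowest. In DC-primed cells the mean levels ran from let-7a at 5.42 ± 2.22 through let-7e at 4.53 ± 1.02, let-7d at 4.37 ± 0.80, let-7i at 4.34 ± 0.78, let-7c at 4.29 ± 1.02, let-7g at 3.89 ± 1.58, let-7b at 3.62 ± 0.69 and let-7f at 2.74 ± 2.37 to miR-98 at -1.11 ± 3.19 (SD, n = 3). In B cell-primed cells the order was let-7a at 4.86 ± 1.06, let-7e at 3.89 ± 0.07, let-7i at 3.87 ± 0.30, let-7g at 3.69 ± 0.87, let-7d at 3.51 ± 0.97, let-7c at 2.84 ± 0.82, let-7f at 2.31 ± 1.17, let-7b at 2.06 ± 0.42 and miR-98 at 0.28 ± 1.46 (SD, n = 3). From let-7a down to let-7f in DC-primed cells and down to let-7b in B cell-primed cells, neighbours in the order differed by less than the larger of their SDs, while the gap down to miR-98 exceeded both SDs in each group. The mature RNAs have 1 length, but the efficiency of each primer is not given in the sources used here, so the order of assays is approximate. Among the 274 tested assays ranked by mean level, the 8 members lay between ranks 13 and 43 in DC-primed cells and between 19 and 60 in B cell-primed cells.

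**Figure D1:**
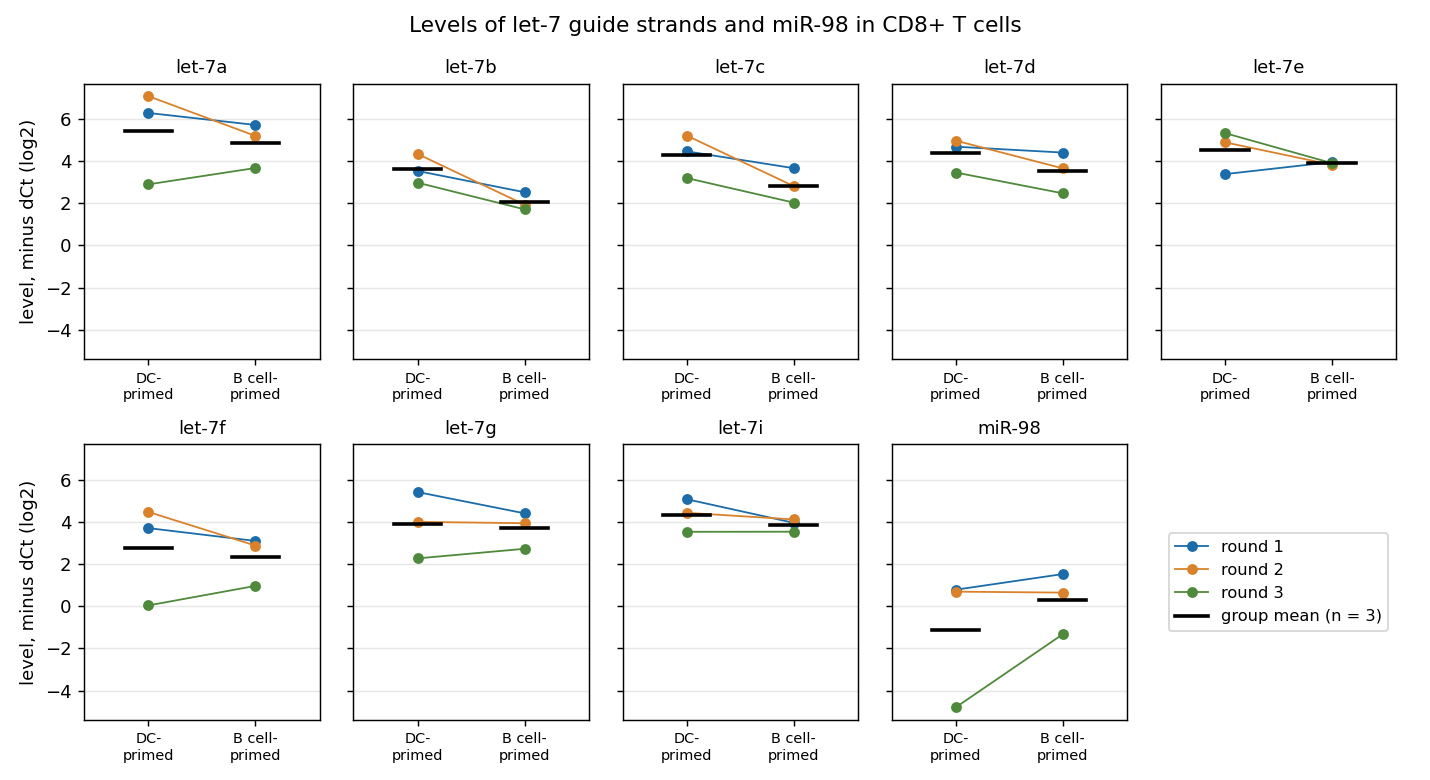
Level of each let-7 assay (minus dCt, log2) in the 3 DC-primed samples (left in each panel) and the 3 B cell-primed samples (right), with lines joining the samples of 1 round and black bars for the group means. let-7b is the 1 member whose groups do not overlap, and let-7a, let-7f, let-7g, let-7i (narrowly) and miR-98 are lowest in DC-primed sample 3.

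The comparison asked whether let-7 levels in CD8+ T cells depend on the priming cell. All 8 tested members had a higher mean in DC-primed cells on the authors' scale, where 53.3% of all tested assays did, although 6 of the 8 were lower in raw Ct without normalization. The median difference of the 8 was 0.60, against 0.07 for all 274 tested assays. No member passed the test: limma called 0 of the 8 at an adjusted p under 0.05, as it called 0 of 274 assays (0%), and let-7b had the smallest adjusted p of the family, 0.544. Without adjustment 1 member, let-7b, had a p under 0.05 and a higher level in DC-primed cells, where 1.46% of all tested assays did, and 0 members had one with a lower level, where 7.3% did. With the round as a block, 0 members had an unadjusted p under 0.05.

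let-7b had levels of 3.53, 4.34 and 2.98 in DC-primed samples 1, 2 and 3, against 2.52, 1.93 and 1.71 in B cell-primed samples 1, 2 and 3. The lowest DC-primed value lay above the highest B cell-primed value. Of the 8 members, let-7b alone had groups that did not overlap with DC-primed higher, a pattern shown by 5.47% of all tested assays, and 0 members had it with DC-primed lower, where 8.03% did. The difference was 1.56 ± 0.68 (SE), a fold of 2.95 of DC-primed over B cell-primed, with a 95% confidence interval of 0.02 to 3.10 on the log2 scale and an unadjusted limma p of 0.0476. That interval and p come from the fit without the rounds, and the unadjusted p was 0.0645 in limma with the round as a block and 0.0681 in the paired test over the rounds.

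let-7c, encoded beside let-7b and 1 base different from it, had levels of 4.46, 5.21 and 3.20 in DC-primed samples, against 3.66, 2.81 and 2.03 in B cell-primed samples. DC-primed sample 3 lay below B cell-primed sample 1, so the groups overlapped, but the DC-primed sample was the higher one in each round, by 0.80, 2.40 and 1.17. The difference was 1.45 ± 0.79 (SE; 95% confidence interval -0.34 to 3.25; limma adjusted p = 0.707).

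let-7d was the third member with 1 sign in every round, at 4.68, 4.97 and 3.46 in DC-primed samples and 4.40, 3.65 and 2.47 in B cell-primed samples. Its difference was 0.86 ± 0.78 (SE; limma adjusted p = 0.961). Thus 3 of the 8 tested members, let-7b, let-7c and let-7d, were higher in the DC-primed sample of every round, where 12.8% of all tested assays were, and 0 of the 8 were lower in every round, where 12.8% also were.

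let-7a and let-7f changed sign between rounds. let-7a had levels of 6.28, 7.08 and 2.90 in DC-primed samples, against 5.71, 5.19 and 3.67 in B cell-primed samples. let-7f had 3.70, 4.47 and 0.04 in DC-primed samples, against 3.09, 2.87 and 0.96 in B cell-primed samples. In both, the DC-primed sample was higher in rounds 1 and 2 and lower in round 3, where both groups had their lowest values. The differences by round were 0.57, 1.89 and -0.77 for let-7a and 0.61, 1.60 and -0.92 for let-7f, with overall differences of 0.56 ± 1.14 and 0.43 ± 1.20 (SE; limma adjusted p = 0.986 for each).

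let-7g and let-7i, which share G12U and U18C, had their largest differences in round 1. let-7g was at 5.41, 3.999 and 2.27 in DC-primed samples and 4.40, 3.93 and 2.72 in B cell-primed samples, a difference of 0.21 ± 0.93 (SE; limma adjusted p = 0.986). let-7i was at 5.07, 4.43 and 3.53 in DC-primed samples and 3.95, 4.11 and 3.53 in B cell-primed samples, a difference of 0.48 ± 0.68 (SE; limma adjusted p = 0.977). The groups overlapped for both, and for let-7i the samples of round 3 were level.

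let-7e departed from the other members most in DC-primed sample 3. Its level was 3.38, 4.89 and 5.33 in DC-primed samples 1, 2 and 3, while in B cell-primed samples it stayed at 3.95, 3.82 and 3.90, the smallest SD of any member in either group. DC-primed sample 3, in which the 8 other members were lowest among the DC-primed samples, had the highest let-7e. The difference was 0.64 ± 0.72 (SE; limma adjusted p = 0.971), and the groups overlapped because DC-primed sample 1 lay below all B cell-primed samples.

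miR-98 had levels of 0.78, 0.69 and -4.79 in DC-primed samples, against 1.52, 0.64 and -1.33 in B cell-primed samples. It was the 1 member with a lower mean in DC-primed cells, with a difference of -1.39. By round the differences were -0.74, 0.05 and -3.46, and the Ct of DC-primed sample 3, at 35.25, was past the limit of 35 set for testing. When DC-primed sample 3 was dropped from filter and fit while B cell-primed sample 3, the lowest of its group, was kept, the difference was 0.46 (limma adjusted p = 0.988).

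**Figure D2:**
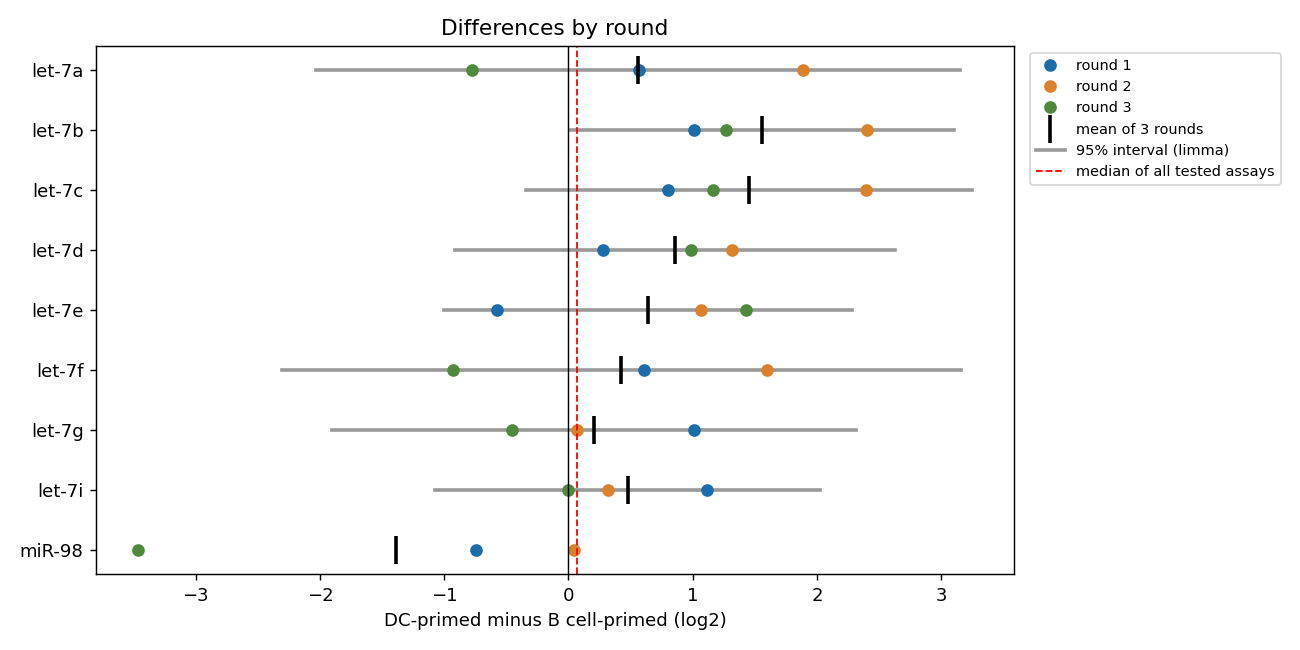
DC-primed minus B cell-primed difference of each let-7 assay (log2) in rounds 1, 2 and 3 (points), with the mean of the 3 rounds (black tick), limma's 95% confidence interval (grey bar, absent for the untested miR-98) and the median of all 274 tested assays (dashed line, 0.07). let-7b, let-7c and let-7d lie above 0 in every round, and the interval of let-7b starts at 0.02.

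Round 3 weighed on most of the counts. Without DC-primed sample 3 the median difference of the 8 tested members was 1.55, and 6 of the 8 had DC-primed values above all B cell-primed values, where 14.6% of all tested assays had. In the rounds 1 and 2 that then remained, 7 of the 8 were higher in the DC-primed sample in both, where 26.6% of all tested assays were. limma still called 0 of the 8, while it called 2 of all 274 tested assays. The median difference was 0.95 without both samples of round 3 and 0.32 without B cell-primed sample 3 alone. The within-sample spread between the highest and lowest tested member was 5.29 in DC-primed sample 3, against 2.90 and 3.08 in DC-primed samples 1 and 2 and 3.19, 3.26 and 2.94 in B cell-primed samples 1, 2 and 3.

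How the members varied relative to each other was compared within samples, where the scaling number cancels. let-7a exceeded let-7f by 2.58, 2.61 and 2.86 in DC-primed samples 1, 2 and 3 and by 2.62, 2.32 and 2.71 in B cell-primed samples, although each RNA alone ranged over more than 4 units. The SD of this difference over the 6 samples was 0.18, and 11 of 37401 pairs of tested assays had one as small. let-7b and let-7c were the next closest pair, with let-7b lower by 0.93, 0.87 and 0.22 in DC-primed samples and by 1.14, 0.88 and 0.32 in B cell-primed samples, and an SD of 0.37. The median SD was 1.00 over the 28 pairs of tested members, against 1.55 over all pairs of tested assays.

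Pairs of assays that differ by 1 base varied in how closely they ran together. let-7a and let-7e also differ by 1 base, U9G. let-7a exceeded let-7e by 2.90, 2.19 and -2.43 in DC-primed samples, against 1.76, 1.37 and -0.23 in B cell-primed samples, so the order of the 2 turned round in round 3. The SD was 1.95, and it was 0.95 for let-7a and let-7c. Over the 4 pairs with 1 mismatched base the SD ran from 0.18 to 1.95 with a median of 0.66, and over the 8 pairs with 2 mismatches from 0.66 to 2.07 with a median of 1.02. The median was 1.03 with 3 mismatches and 0.99 with 4. The only pair with 5 mismatches had an SD of 1.14 and the only pair with 6 had 0.60. let-7d, encoded with let-7a and let-7f, followed let-7c more closely (SD 0.39, 3 mismatches) than it followed let-7a (SD 0.92, 2 mismatches).

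**Figure D3:**
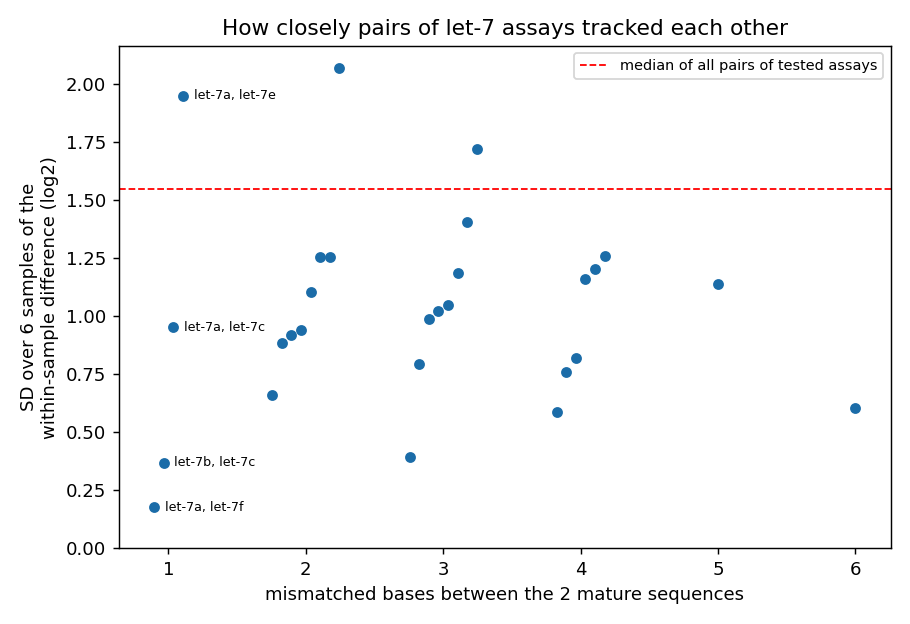
SD over the 6 samples of the within-sample difference between 2 tested let-7 assays (log2, y axis) against the number of mismatched bases between their mature sequences (x axis), 1 point per pair, spread sideways for legibility. The 4 pairs that differ by 1 base span 0.18 to 1.95, and the dashed line is the median of all pairs of tested assays, 1.55.

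Few ratios between members separated the groups. let-7c minus let-7d was the only 1 of 28 tested pairs whose groups did not overlap, at -0.22, 0.24 and -0.26 in DC-primed samples, against -0.74, -0.84 and -0.44 in B cell-primed samples, while 14.3% of all pairs of tested assays did not overlap. miR-98, outside this count because it was not tested, did not overlap in 4 of its 8 ratios to the others, always toward less miR-98 in DC-primed cells. The 8 ratios share miR-98 and are not separate observations. Relative to the mean of the 8 tested members miR-98 did overlap, at -3.78, -4.23 and -7.75 in DC-primed samples and -2.44, -2.90 and -3.95 in B cell-primed samples. For let-7f, its neighbour on chromosome X, the level exceeded that of miR-98 by 2.92, 3.78 and 4.83 in DC-primed samples, against 1.57, 2.23 and 2.29 in B cell-primed samples. DC-primed samples 1 and 2, in which miR-98 was within the Ct limit for testing, thus also lay above all B cell-primed samples.

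The direction of most members depended on whether the samples were normalized, not on which normalization was used. All 8 tested members had a higher mean in DC-primed cells under every normalization run. In raw Ct 6 of the 8 were lower, as was the median of all tested assays. Without normalization the median of all tested assays shifted to -1.26, and with RNY3 and snoRD47, which are small RNAs other than miRNAs, as the scale it shifted to 1.30. The median of the 8 members was -0.73 in the first and 1.83 in the second, 0.53 above all assays, a distance that cannot change under these scalings because they move every assay of a sample alike. Quantile normalization does not, and there the median of the 8 members was 0.40, against 0.08 for all tested assays, a distance of 0.31, with 8 of the 8 above the median of all. let-7b and let-7c were the only members with a positive difference under all 20 alternatives run, from 0.23 to 2.79 for let-7b and from 0.12 to 2.68 for let-7c. The smallest adjusted p for let-7b over these alternatives was 0.229. Some of them cannot change a member's difference and so say nothing about its sign. These were the Ct limits, the block, the paired test and the run without assays with a filled-in Ct.

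**Figure D4:**
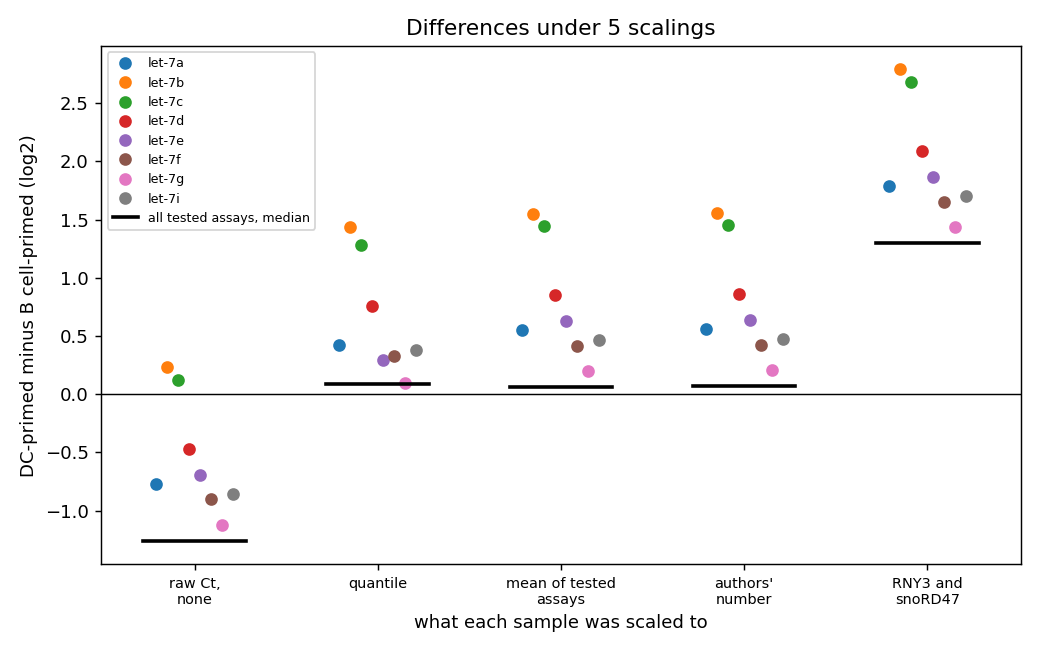
DC-primed minus B cell-primed difference (log2) of the 8 tested let-7 assays under 5 scalings of the samples, with black bars for the median of all 274 tested assays. let-7b and let-7c stay above 0 under each scaling, at 0.23 and 0.12 in raw Ct, and the other 6 members fall below 0 in raw Ct.

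The passenger strands, the other arms of the hairpins, were read by 3 assays, of which 2 were tested and 0 called by limma. let-7g* had levels of 7.38, 10.38 and 11.60 in DC-primed samples, against 7.55, 7.79 and 8.22 in B cell-primed samples, well above its guide. Its raw Ct hardly moved, at 18.8, 18.08 and 18.86 in DC-primed samples and 18.8, 19.33 and 19.41 in B cell-primed samples, while that of let-7g ran from 20.77 to 28.19. Its level thus moved with the scaling number. let-7a* was at -0.94, -1.85 and -1.42 in DC-primed samples and -1.07, -0.96 and -2.44 in B cell-primed samples. let-7i* was not tested, its Ct being 35.61 and 35.86 in DC-primed samples 2 and 3.

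miRNAs encoded beside let-7 genes, the miR-99/miR-100 and miR-125 families, were read by 8 assays, of which 6 were tested and 0 called by limma. Of the 6, 4 had a higher mean in DC-primed cells and 2 a lower one, with a median difference of 1.50. miR-99b, which in mouse is encoded in 1 cluster with let-7e and miR-125a, had levels of 1.82, -1.13 and -2.66 in DC-primed samples, against -3.25, -2.95 and -3.40 in B cell-primed samples (difference 2.54 ± 1.08 (SE), limma adjusted p = 0.532). miR-125a-5p had 4.20, 1.60 and -0.39 in DC-primed samples, against 0.22, -0.88 and -0.19 in B cell-primed samples. Both were highest in DC-primed sample 1 and lowest among the DC-primed samples in sample 3, the reverse of let-7e.

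The 5 tested assays outside the family whose levels over the 6 samples were most like the mean of the 8 members were the human-named miR-20b* (Pearson r = 0.98), miR-146a, induced by NF-kappaB (0.94), miR-185 (0.92), miR-200a* (0.84) and miR-341 (0.79). Among the members themselves r ran from 0.96 for let-7d down to -0.12 for let-7e. The 6 samples share the scaling number of each sample, and these values describe the samples only. miR-146a had levels of 2.95, 3.46 and -1.01 in DC-primed samples, against 2.02, 1.57 and -0.05 in B cell-primed samples, with the DC-primed sample higher in rounds 1 and 2 and lower in round 3, as for let-7a and let-7f.

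Markers of myeloid and dendritic cells moved with the groups in part, and no B cell markers were listed. The 4 myeloid assays, miR-223, which is abundant in myeloid cells, miR-22, miR-146b and miR-147, of which 2 were tested, had a summed level of 1.05 to 7.19 in DC-primed samples, against -0.32 to 1.47 in B cell-primed samples. miR-223 was at 5.36, 1.23 and -6.53 in DC-primed samples and -5.79, -5.32 and -5.04 in B cell-primed samples, and each of the 4 had a Ct in every sample. Over the DC-primed samples let-7g, let-7i and miR-98 had the same order as miR-223, highest in sample 1 and lowest in sample 3, let-7e had the reverse order, and the other 5 members were highest in sample 2 and lowest in sample 3. Of the other myeloid assays, miR-22 and miR-146b had the order of miR-223 as well, while miR-147 was lowest in sample 2. The part of the priming cells in the let-7 differences was not tested.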

How the data were processed

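MicroRNAs were read by SYBR Green qPCR in 6 samples, grouped by title; per the labels' protocols RNA was poly(A)-tailed and primed with oligo-dT. The authors deposited raw Ct and dCt values, which are log2 values with the sign turned: per the file headers, Ct minus the geometric mean of a sample's Ct values. The 2 files carry each other's names; headers and values were followed. The authors' p-value (paired, two-tailed) and fold change were deposited too. In the authors' deposited table the p-value was 0.0681 for let-7b, 0.0949 for let-7c, 0.107 for let-7d and 0.290 to 0.678 for the other 6 members.

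Groups were compared with limma's lmFit and eBayes (version 3.58.1, R 4.3.3, two-sided) on minus dCt of 274 of 345 assays, adjusted by Benjamini-Hochberg at 0.05; figures used matplotlib 3.10.9 in Python 3.11.15. On simulated data of 274 assays it called 0%, 25% and 70% of assays changed by 1, 2 and 4 log2 units. The titles give the round, and rounds were taken as pairs for the block alternative. Same-round deviations from the group means correlated at 0.16, 0.14 and 0.46 in rounds 1, 2 and 3. Deviations from different rounds correlated at -0.42 to 0.33. The value of 0.33, for round 1 of the DC-primed and round 2 of the B cell-primed group, exceeded 0.16 and 0.14. The correlations alone thus do not settle the pairing. Members, lists and named genes (all members, passenger strands, neighbours, the 5 most alike assays) were chosen with earlier results of these data known. Each assay has 1 Ct per sample, so its technical error is unknown. Whether rounds used separate animals is not given, so a p-value reflects only how these samples vary, which may be technical. Assay primer sequences were not used here. Alternatives were 4 scalings, 3 Ct limits, the block, the paired test, left-out samples and rounds, and assays without filled-in Ct.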

Additional observations from a re-analysis of the deposited data

How the results depend on the processing

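Under the 20 alternatives 0 of the tested members were called at an adjusted p under 0.05, by limma or, in 1 alternative, by the paired test over the rounds. Assays outside the family were called only without DC-primed sample 3. There limma called 2 of 274 assays, and 5 of 319 when that sample was left out of the filter too. The round as a replicate block changed no adjusted call, but let-7b had an unadjusted limma p of 0.0645 in that paired fit, so 0 members, against 1 without the block, had one under 0.05. Without normalization the median difference was -0.73, the count of non-overlapping members 0 and that of members with 1 sign in every round 1; let-7a was at -0.77, let-7d at -0.47, let-7e at -0.69, let-7f at -0.90, let-7g at -1.12 and let-7i at -0.85. Relative to RNY3 and snoRD47 the median was 1.83. With 1 sample left out at a time the median ran from 0.32 (without B cell-primed sample 3) to 1.55 (without DC-primed sample 3), the non-overlapping count from 1 to 6 and the 1-sign count from 3 to 7, with 7 when either sample of round 3 was left out. let-7a then ran from -0.27 to 1.82, let-7f from -0.44 to 1.78 and let-7g from -0.55 to 1.02, while the other 5 tested members stayed positive. Without both samples of round 1, 3 members did not overlap and let-7g was at -0.19; without round 2, let-7a was at -0.10 and let-7f at -0.16; without round 3, 6 did not overlap, 7 had 1 sign and the median was 0.95. With DC-primed sample 3 left out of the filter too, chosen after seeing the data, these counts were 6 and 7 of 9 members and miR-98 was at 0.46. Leaving out DC-primed sample 3 also raised the shares of all 274 tested assays. Those with DC-primed values above all B cell-primed values went from 5.47% to 14.6%. Those higher in the DC-primed sample of every round went from 12.8% to 26.6%. For the other left-out samples and rounds these shares were not computed, so their counts describe the members only. The cause of these shifts was not tested. Differences of 1 log2 unit were below what the test found in simulated data of this size.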
